A study of Mus musculus with 12 samples.

Results

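The mitochondrial respiratory chain consists of 4 inner-membrane complexes that pass electrons to oxygen, and complex V, the ATP synthase, which uses the resulting proton gradient to make ATP. The subunits encoded in the nucleus were taken from the deposited expression table by gene symbol: the Nduf genes of complex I, the Sdh genes of complex II, Uqcr genes and Cyc1 of complex III, the Cox genes numbered 4 to 8 of complex IV and the Atp5 genes of complex V. These patterns matched 83 rows, none named as a pseudogene. Cox8c, Cox7b2 and Ndufa4l2 had no value in any library, which left 80 genes of the 23427 rows in the table, 15371 of which had a value. Of the 80 genes, 76 encode subunits: 34 of complex I, 3 of complex II, 8 of complex III, 16 of complex IV (with Ndufa4, now assigned there) and 15 of complex V. The other 4 carry a matching name without being subunits: Ndufa12l (Ndufaf2, a complex I assembly factor), Cox7a2l (a factor of respiratory supercomplexes), Atp5s (Dmac2l) and Cox4nb (Emc8, a protein of the endoplasmic reticulum). In total, 78 of the 80 genes were listed in all 4 libraries, all of them at a mean of at least 1 RPKM (reads per kilobase of transcript, scaled by library size), and were compared. Cox8b and Cox4i2 were not listed in every library and are described separately.

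The study induced Hey1 or Hey2, transcriptional repressors that act downstream of Notch in the heart and vessels, in mouse embryonic stem cells and in cardiomyocytes. The RNA libraries came from cardiomyocytes differentiated in culture from CM7/1, a mouse embryonic stem cell line, in a Hey1-inducible and a Hey2-inducible version (called Hey1 line and Hey2 line). Each line gave 1 library without doxycycline and 1 after 48 h of 1000 ng/ml doxycycline. A doxycycline-treated line without a Hey transgene is not among the 4 libraries, so effects of the drug and of the transgene cannot be told apart, and the labels do not say whether each line is a single clone. With 1 library per group there is no replicate error and no test. Differences are given by size, and every 95% interval below covers counting error only.

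Heart muscle is among the tissues richest in mitochondria. Several complex IV subunits exist as a heart and skeletal muscle form and a form found in most tissues, each from its own gene, and the c subunit of complex V is encoded by 3 genes whose mature proteins are identical. Complex II pumps no protons and is also succinate dehydrogenase, an enzyme of the citric acid cycle, with a flavoprotein (Sdha), an iron-sulphur protein (Sdhb) and a pair of membrane anchors (Sdhc and Sdhd).

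The libraries held 2296145 to 4182141 reads in listed genes. Hey1 stood at 0.735 RPKM in the uninduced and 8.59 RPKM in the induced Hey1 line. Hey2 was not listed in the uninduced Hey2 line and stood at 6.59 RPKM after induction. The lines themselves stood apart before any doxycycline was added. All 18 cardiomyocyte markers examined were at least 2-fold lower in the Hey2 line, and their summed level was 28643 and 29282 RPKM in the Hey1 line, against 1566 and 1615 RPKM in the Hey2 line. Tnnt2, cardiac troponin T, was at 3054 and 3524 RPKM against 258 and 259.7 RPKM, and no marker of the list was missing from the Hey2 line. Of 12 pluripotent cell markers, 11 were compared and 8 of them were at least 2-fold higher in the uninduced Hey2 line, with sums of 44.2 and 35.0 against 428 and 446 RPKM; Dppa4 was not listed in the Hey1 line. All 8 proliferation markers were at least 2-fold higher, with sums of 38.5 and 27.2 against 281 and 287 RPKM. Sums over 8 fibroblast markers were 46.0 and 39.4 against 67.7 and 85.5 RPKM, and sums over 6 endothelial markers were near 0 in both lines at 2.69 and 2.67 against 7.31 and 7.28 RPKM. Sums over 5 listed yolk sac endoderm markers were 64.6 and 45.2 RPKM in the Hey1 line, against 10.5 and 9.62 RPKM. Afp made up most of the Hey1-line sums, at 58.5 and 42.0 RPKM. Only 2 of these genes were compared, with uninduced line differences in log2(RPKM + 1) of -4.62 and -0.80. Apoa2 had a value in the Hey1 line only, and Sox17 in the Hey2 line only. Neural markers summed to 23.0 and 24.4 against 24.5 and 23.1 RPKM. The 2 neural genes compared went in opposite directions, at -1.77 and 1.41, and Pax6 and Sox1 had values in the Hey2 line only. Every difference between the lines below goes with these marker differences, and their part in it was not tested. In bulk RNA, fewer cardiomyocytes and less RNA per cardiomyocyte cannot be told apart.

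Respiratory chain subunit genes were among the most abundant transcripts in all 4 libraries, and their levels were higher in both libraries of the Hey1 line. The 76 subunit genes summed to 11903 RPKM in the uninduced and 11134 RPKM in the induced Hey1 line, against 3387 and 3290 RPKM in the Hey2 line. This amounted to 6.40% and 6.12% of all RPKM in the Hey1 line, against 2.15% and 2.12% in the Hey2 line. The median subunit gene stood at 115 and 90.6 RPKM in the Hey1 line, against 39.4 and 36.8 RPKM in the Hey2 line. Complex V had the largest sum in each library, from 3722 RPKM in the uninduced Hey1 line to 1166 RPKM in the induced Hey2 line. Complex IV followed at 3331 RPKM in the uninduced Hey1 line, ahead of complex I at 3163 RPKM. In the Hey2 line the order of these sums was turned. Complex IV summed to 747 RPKM against 934 RPKM for complex I in the uninduced library, and to 776 against 893 RPKM in the induced one. Of the complex IV sums, the 3 muscle isoforms gave 456 RPKM in the uninduced Hey1 line and 10.3 RPKM in the uninduced Hey2 line. In the Hey1 line their sum exceeded the lead of complex IV over complex I.

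**Figure D1:**
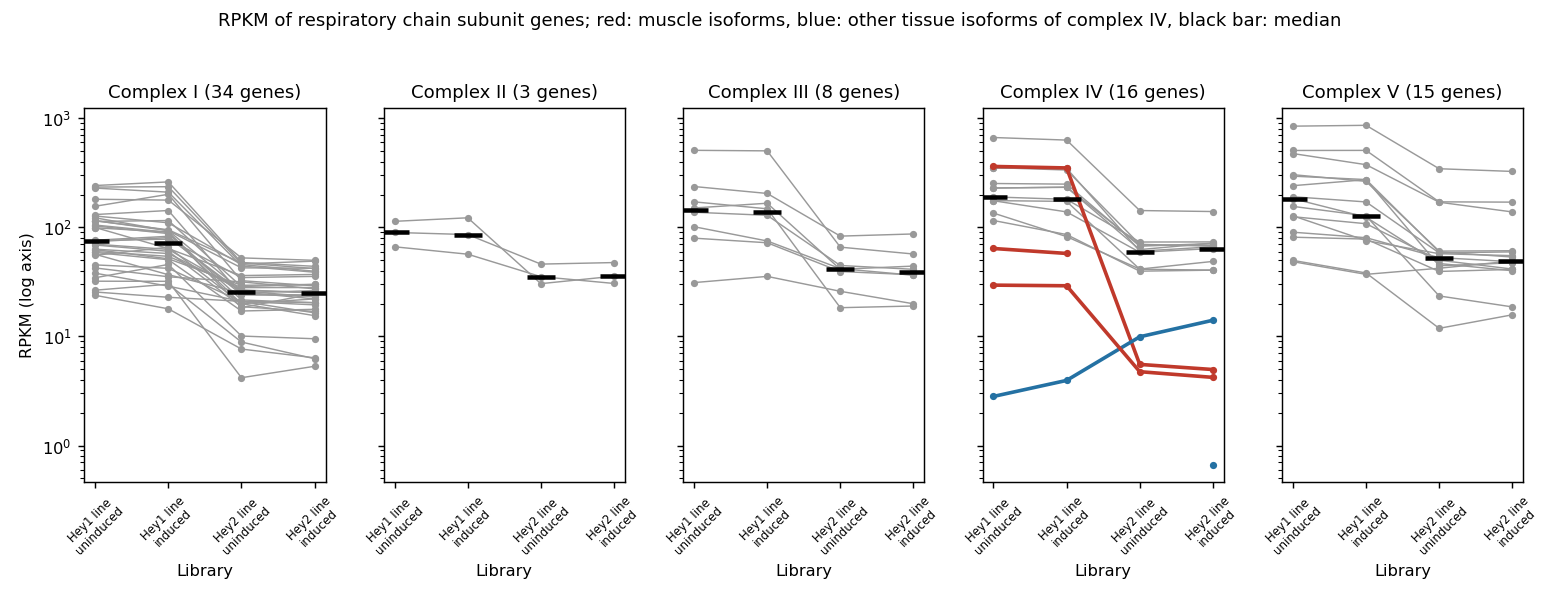
RPKM (log axis) of every subunit gene in the 4 libraries, 1 panel per complex; lines join the values of a gene, black bars are medians over the listed genes, red marks the muscle isoforms Cox6a2, Cox7a1 and Cox8b, and blue marks Cox6b2 and Cox4i2. Most genes step down from the Hey1 line to the Hey2 line, for complex I from medians of 74.8 and 71.9 RPKM to 25.8 and 24.9 RPKM, while Cox6b2 steps up.

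Between the uninduced libraries, 64 of the 78 compared genes were at least 2-fold lower in the Hey2 line on the log2(RPKM + 1) scale and 1 was at least 2-fold higher. Of all 10991 compared genes, 13.1% were as much lower and 19.7% as much higher. The median difference was -1.56 for the respiratory chain genes and 0.20 for all compared genes. The induced pair shares no library with the uninduced pair but comes from the same lines, so a difference between the lines or their cultures can enter both. Between the induced libraries, 57 of the 78 genes were at least 2-fold lower and 1 higher, where 12.3% and 22.8% of all compared genes were. The medians were -1.48 and 0.27. Both Hey2-line libraries lay below both Hey1-line libraries for 73 of the 78 genes, against 34.6% of all compared genes. They lay above for Cox6b2 and for 3 of the 4 genes that are not subunits, against 52.3% of all compared genes, and Atp5g2 alone lay in neither class. Over the 78 genes, the uninduced and the induced line difference had a Spearman correlation of 0.92 across genes, which are not independent replicates; it was 0.95 over all compared genes.

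Short or abundant transcripts taken from all genes had medians nearer 0. The 78 genes are short, with a median length of 681 bases against 2894 bases for all compared genes, and 854 compared genes under 1000 bases had a median line difference of -0.18. The 1596 compared genes averaging 20 RPKM or more had a median of -0.01. In the uninduced pair, 214 of the 854 were at least 2-fold lower and 133 as much higher. Of the 1596, 450 were lower and 362 higher by that rule. Both shares of lower genes exceeded the 13.1% of all compared genes, where 19.7% were higher. Across the 78 genes, shorter and more abundant transcripts had the more negative differences, with Spearman correlations of 0.36 for length and -0.41 for level. These genes include the 4 that are not subunits, among them the longest at 4933 bases, where subunit genes reached 2859 bases. Correlations over the subunit genes alone were not computed. Over all compared genes the correlation with length was 0.08.

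**Figure D2:**
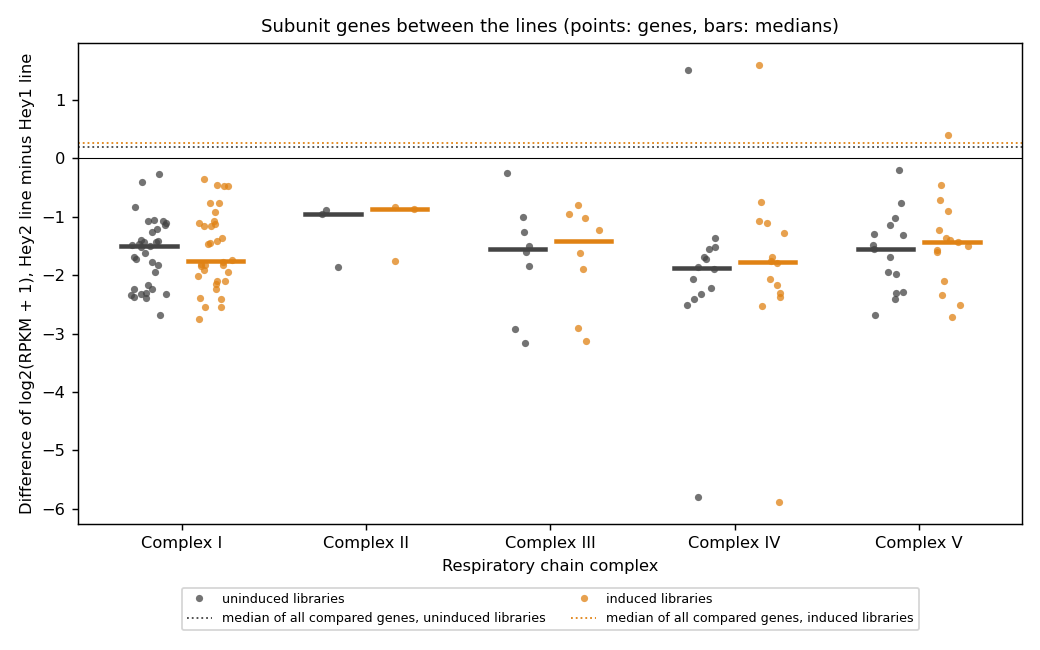
Difference of log2(RPKM + 1) between the lines (Hey2 line minus Hey1 line) for the compared subunit genes of each complex, in the uninduced (grey) and induced (orange) libraries; points are genes, bars medians, and dotted lines the medians of all compared genes. Bars run from -0.87 for complex II to -1.88 for complex IV, below the dotted lines at 0.20 and 0.27; the lowest points are Cox6a2 and the highest are Cox6b2.

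Complex I oxidizes NADH and passes its electrons to ubiquinone. In the uninduced pair, 31 of its 34 genes were at least 2-fold lower in the Hey2 line, with a median of -1.51, and in the induced pair 27 were, with a median of -1.76. All 34 were lower in both pairs, with counting intervals that left out equality, as did 28.8% and 29.2% of all compared genes. Of the 1596 genes averaging 20 RPKM or more, 706 and 698 had such intervals. The 7 nuclear genes of the catalytic core and the 27 accessory genes lay close together, with uninduced medians of -1.43 and -1.52. Within the core, Ndufv1, Ndufv2 and Ndufs1 of the module that takes electrons from NADH had a median of -1.14 and the 4 genes of the quinone-binding module a median of -1.55. Ndufb7, an accessory subunit of the membrane arm, was the most abundant complex I gene before induction in the Hey1 line, at 242 and 261 RPKM there and 47.6 and 43.9 RPKM in the Hey2 line. It was 5.08-fold lower in the uninduced Hey2 line, with an interval of 4.26 to 6.09.

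The range within complex I was wide. Ndufa11, a membrane arm subunit, stood at 32.1 and 32.0 RPKM in the Hey1 line, against 4.18 and 5.32 RPKM in the Hey2 line, 7.67-fold lower without doxycycline (5.93 to 10.1). Ndufs4, an accessory subunit of the electron-input arm, was at 25.5 and 22.9 RPKM in the Hey1 line, against 21.0 and 16.5 RPKM in the Hey2 line. Its 1.22-fold difference in the uninduced pair (1.01 to 1.47) was the smallest in the complex. The intervals of Ndufa11 and Ndufs4 did not meet.

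Complex II was the least different of the 5 complexes, with medians of -0.95 and -0.87, and only Sdhb of its 3 matched genes was at least 2-fold lower. Sdha was at 89.9 and 85.9 RPKM in the Hey1 line, against 46.0 and 47.6 RPKM in the Hey2 line, 1.95-fold lower in the uninduced pair (1.79 to 2.13). Sdhb was at 114 and 122 RPKM against 30.5 and 35.7 RPKM, 3.73-fold lower (3.18 to 4.39). Sdhd, a membrane anchor, was at 66.4 and 56.8 RPKM against 35.3 and 30.6 RPKM, 1.88-fold lower (1.62 to 2.18). Sdhb thus moved from the highest of the 3 genes in the Hey1 line to the lowest in the uninduced Hey2 line. The other anchor, Sdhc, carries another symbol in the table and was found by its Entrez identifier, 66052. It was at 141 and 136 RPKM in the Hey1 line, against 46.2 and 46.1 RPKM in the Hey2 line, 3.06-fold lower, and with it 2 of 4 complex II genes passed 2-fold and the uninduced median was -1.27.

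Complex III passes electrons from ubiquinol to cytochrome c. Of its 8 genes, 6 were at least 2-fold lower in each pair, with medians of -1.55 and -1.42. Uqcrq, a small subunit and the most abundant of them, was at 509 and 503 RPKM in the Hey1 line, against 65.9 and 57.0 RPKM in the Hey2 line, 7.72-fold lower (6.65 to 9.01). Uqcr, the deposited name of the small subunit gene Uqcr11, was at 171 and 148 RPKM against 18.3 and 19.0 RPKM, 9.34-fold lower (6.91 to 12.9). Uqcr10, another small subunit, which the table lists under another symbol, was at 458 and 361 RPKM against 58.0 and 55.3 RPKM, 7.90-fold lower. The larger subunits differed less: Uqcrc1, a core protein, was 3.65-fold lower (3.27 to 4.08), and Uqcrc2, the other core protein, 2.02-fold lower (1.81 to 2.27). Cyc1, which carries the haem of cytochrome c1, was 3.08-fold lower (2.71 to 3.50). Not every small subunit differed as much. Uqcrb, which helps to bind ubiquinone, was at 31.2 and 35.5 RPKM in the Hey1 line, against 25.9 and 19.9 RPKM in the Hey2 line. Its 1.20-fold difference in the uninduced pair (0.891 to 1.63) was within counting error.

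Complex IV, cytochrome c oxidase, reduces oxygen to water. Its medians of -1.88 and -1.78 were the lowest of the 5 complexes, and 13 of 14 compared genes in the uninduced pair and 12 in the induced pair were at least 2-fold lower. Cox4i1, the common form of subunit 4 and the most abundant complex IV gene, was at 667 and 631 RPKM in the Hey1 line, against 143 and 139.7 RPKM in the Hey2 line, 4.67-fold lower (4.27 to 5.12). Cox5a had the smallest difference in the uninduced pair. Its levels went from 190.2 and 181 RPKM to 73.4 and 73.5 RPKM, 2.59-fold lower without doxycycline (2.15 to 3.14). In the induced pair the smallest was that of Cox7c, 1.69-fold lower (1.41 to 2.02). Cox5b, from 349 and 348 RPKM to 60.5 and 66.4 RPKM, had the largest among the common subunits, 5.76-fold lower (4.97 to 6.72). The extremes of the complex were tissue isoforms.

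All 3 muscle isoform genes were lower in the Hey2 line, and Cox6a2 made up most of their sums of 456 and 437 RPKM in the Hey1 line, against 10.3 and 9.18 RPKM in the Hey2 line. Cox6a2 (Entrez Gene 12862), the muscle form of subunit 6a, was at 362 and 351 RPKM in the Hey1 line, against 5.54 and 4.97 RPKM in the Hey2 line. It was 65.3-fold lower in the uninduced pair (42.6 to 106) and 70.5-fold lower in the induced pair (50.3 to 102), the largest difference of any compared respiratory chain gene. Cox6a1, its counterpart in most tissues, was at 253 and 249 RPKM against 67.2 and 71.1 RPKM, 3.76-fold lower (3.23 to 4.39). Cox6a2 therefore made up 58.9% and 58.5% of the RPKM of both genes in the Hey1 line, against 7.62% and 6.54% in the Hey2 line. The intervals of 57.0 to 60.8% and 4.76 to 11.5% in the uninduced libraries did not overlap. A share within a library does not depend on how libraries are scaled to each other.

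Cox8b (12869), the muscle form of subunit 8, was listed in the Hey1 line only, at 64.0 and 57.7 RPKM. The minimum taken for a listed gene in the Hey2-line libraries was 5 reads. Against it, Cox8b was at least 26.7-fold lower in the uninduced and at least 43.4-fold lower in the induced Hey2 line. Cox8a, its common counterpart, was at 229.9 and 233 RPKM against 62.5 and 71.8 RPKM, 3.68-fold lower (3.15 to 4.31), and Cox8b made up 21.8% and 19.8% of the pair in the Hey1 line. Cox7a1 (12865), the muscle form of subunit 7a, was at 29.5 and 29.1 RPKM against 4.75 and 4.21 RPKM. It was 6.22-fold lower without doxycycline, with a wide interval of 2.45 to 20.2 from as few as 5 reads. Cox7a2, the common form, was at 116 and 85.9 RPKM against 39.7 and 40.5 RPKM, 2.91-fold lower (2.46 to 3.47). The share of Cox7a1 in that pair was 20.4% (15.3 to 26.0%) and 25.3% in the Hey1 line, and 10.7% (3.70 to 22.2%) and 9.42% in the Hey2 line, so in the uninduced libraries the intervals overlapped. In the induced libraries they did not, at 19.3 to 31.9% against 4.26 to 17.2%. The common form was the more abundant in each pair and library except for subunit 6a in the Hey1 line.

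Cox6b2 (333182), a testis form of subunit 6b, ran the other way. It was at 2.82 and 3.95 RPKM in the Hey1 line, against 9.93 and 14.1 RPKM in the Hey2 line, 3.52-fold higher in the uninduced pair (2.05 to 6.31) and 3.56-fold higher in the induced pair (2.34 to 5.60). Its common counterpart Cox6b1 was 5.05-fold lower (4.36 to 5.89), and the share of Cox6b2 was 0.792% and 1.16% in the Hey1 line, against 12.4% and 17.3% in the Hey2 line. Cox4i2, a form of subunit 4 best known from lung, was listed only in the induced Hey2 line, at 0.663 RPKM from 5 reads. The read minimum corresponds to 1.86 and 1.83 RPKM in the uninduced and induced Hey1 line. In the uninduced Hey2 line it is 1.20 RPKM. A level of 0.663 RPKM could not have been listed there, so the blanks do not show a difference. Of the tissue isoforms known from testis, Cox8c and Cox7b2 were listed in no library.

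**Figure D3:**
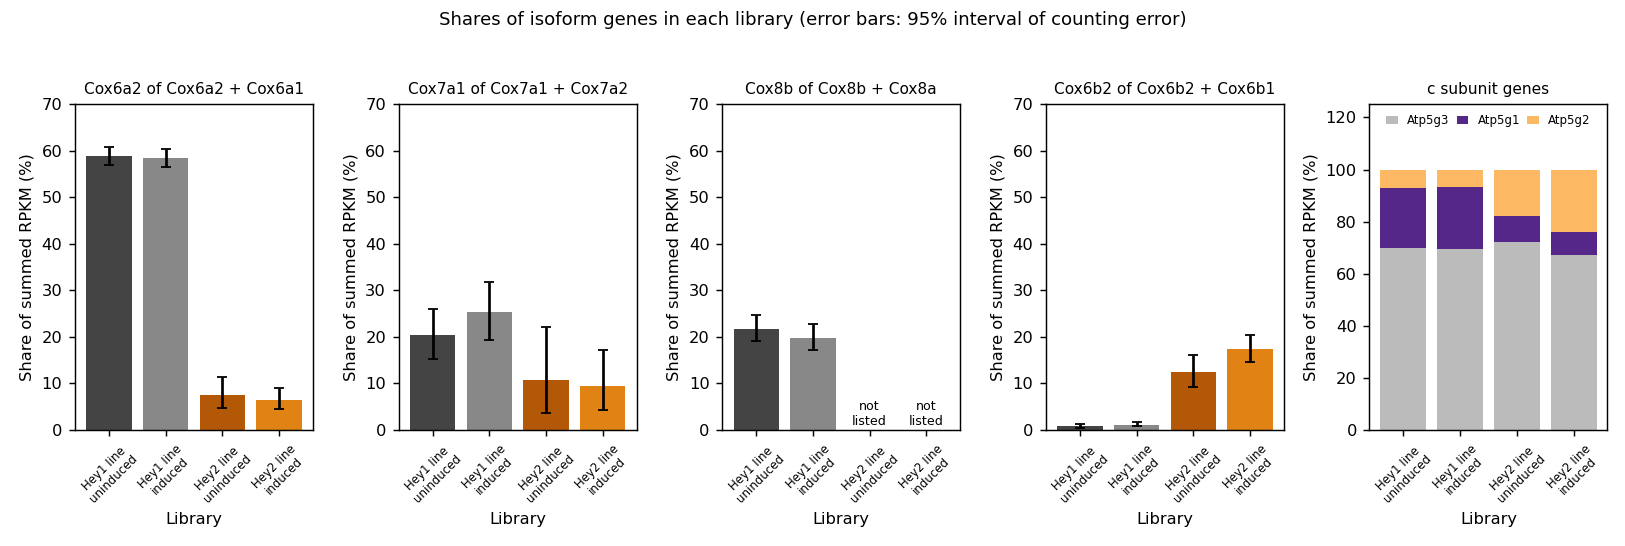
Share of the summed RPKM of an isoform family (percent, y axis) in each library; the first 4 panels give the named gene out of its pair with 95% exact intervals of counting error, and the last stacks the 3 c subunit genes. Cox6a2 drops from 58.9% to 7.62% between the uninduced lines and Cox6b2 rises from 0.792% to 12.4%, while Atp5g3 stays between 67.1% and 72.1%.

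Complex V genes had medians of -1.56 and -1.43, and 13 and 11 of 15 were at least 2-fold lower. The 5 genes of the catalytic head had an uninduced median of -1.56 and the 7 genes of the stalks and membrane part a median of -1.69. Atp5b, the catalytic beta subunit and the most abundant of all subunit genes, was at 847 and 862 RPKM in the Hey1 line, against 345 and 326 RPKM in the Hey2 line, 2.46-fold lower (2.37 to 2.55). The subunits of the head differed among themselves although they form 1 structure: Atp5d, the delta subunit, was 5.42-fold lower (4.73 to 6.24), and Atp5c1, the gamma subunit, 2.06-fold lower (1.85 to 2.30).

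The 3 genes for the c subunit, which forms the rotating ring, differed in 3 ways. Atp5g1 (11951) was at 156 and 128 RPKM in the Hey1 line, against 23.5 and 18.7 RPKM in the Hey2 line, 6.62-fold lower (5.47 to 8.09), the largest difference in complex V. Atp5g3 (228033) was at 475 and 376 RPKM against 170.1 and 139 RPKM, 2.79-fold lower (2.56 to 3.05). Atp5g2 (67942) was at 48.5 and 37.1 RPKM against 42.2 and 49.2 RPKM. In the uninduced pair it was 1.15-fold lower (0.934 to 1.42), within counting error, and in the induced pair 1.33-fold higher (1.10 to 1.60). That reading depends on scaling: with median ratio scaling the induced difference was 0.08 on the log2 scale instead of 0.40. Within each library, Atp5g3 gave most of the c subunit RPKM, at 69.9%, 69.5%, 72.1% and 67.1%. Atp5g1 gave 22.9% and 23.6% in the Hey1 line, against 9.97% and 9.04% in the Hey2 line, and Atp5g2 gave 7.13% and 6.87% against 17.9% and 23.8%. The order of Atp5g1 and Atp5g2 was thus reversed between the lines, with intervals that did not overlap. How reads from near-identical gene copies were counted is not given in the sources used here, so the levels of the c subunit genes are uncertain to that extent.

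The stretches before the start sites of these isoform genes are shown because the genes encode interchangeable subunits but differed between the lines. Each is the 250 bases before the annotated RefSeq start (GRCm38.p6), 5′ to 3′ on the gene's strand, with matches to the searched motifs in capitals. Atp5g1 (chr11:96075632-96075881), Atp5g2 (chr15:102671048-102671297), Atp5g3 (chr2:73911327-73911576), Cox6a1 (chr5:115348959-115349208), Cox6b1 (chr7:30626115-30626364), Cox6b2 (chr7:4753095-4753344), Cox7a2 (chr9:79759854-79760103), Cox8a (chr19:7217617-7217866) and Cox8b (chr7:140900447-140900696) are on the minus strand and Cox7a1 (chr7:30183921-30184170) is on the plus strand. The table holds no entry for Cox6a2.
Atp5g1: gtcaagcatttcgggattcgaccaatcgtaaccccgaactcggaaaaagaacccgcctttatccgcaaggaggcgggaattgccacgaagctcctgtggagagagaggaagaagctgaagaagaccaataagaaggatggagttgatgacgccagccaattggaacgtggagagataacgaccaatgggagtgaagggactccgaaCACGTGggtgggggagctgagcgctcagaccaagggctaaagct
Atp5g2: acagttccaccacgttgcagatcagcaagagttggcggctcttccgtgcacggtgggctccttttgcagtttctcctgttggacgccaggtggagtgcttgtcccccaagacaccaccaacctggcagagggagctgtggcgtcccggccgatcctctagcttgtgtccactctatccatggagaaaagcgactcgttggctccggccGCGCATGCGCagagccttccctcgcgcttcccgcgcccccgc
Atp5g3: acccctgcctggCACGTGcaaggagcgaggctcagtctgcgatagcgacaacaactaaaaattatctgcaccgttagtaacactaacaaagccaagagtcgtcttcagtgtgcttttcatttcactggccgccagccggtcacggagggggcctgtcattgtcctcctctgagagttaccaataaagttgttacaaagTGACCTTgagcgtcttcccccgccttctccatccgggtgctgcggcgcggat
Cox6a1: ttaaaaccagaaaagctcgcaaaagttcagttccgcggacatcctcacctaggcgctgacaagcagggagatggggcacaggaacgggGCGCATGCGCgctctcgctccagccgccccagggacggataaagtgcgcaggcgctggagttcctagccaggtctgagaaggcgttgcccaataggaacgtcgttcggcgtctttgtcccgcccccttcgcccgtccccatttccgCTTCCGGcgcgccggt
Cox6b1: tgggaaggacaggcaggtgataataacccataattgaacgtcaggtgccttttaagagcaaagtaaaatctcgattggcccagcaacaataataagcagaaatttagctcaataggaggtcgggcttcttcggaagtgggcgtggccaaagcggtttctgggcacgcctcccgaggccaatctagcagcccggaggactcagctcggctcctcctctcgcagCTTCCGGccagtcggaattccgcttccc
Cox6b2: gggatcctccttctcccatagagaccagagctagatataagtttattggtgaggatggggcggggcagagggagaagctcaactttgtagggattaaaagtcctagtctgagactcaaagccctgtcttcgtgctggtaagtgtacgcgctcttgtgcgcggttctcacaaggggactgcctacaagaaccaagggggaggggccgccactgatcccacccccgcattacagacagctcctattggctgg
Cox7a1: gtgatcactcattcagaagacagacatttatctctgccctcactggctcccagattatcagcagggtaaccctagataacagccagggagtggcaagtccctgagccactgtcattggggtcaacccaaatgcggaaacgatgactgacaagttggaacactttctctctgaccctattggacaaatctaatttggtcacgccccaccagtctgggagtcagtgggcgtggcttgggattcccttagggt
Cox7a2: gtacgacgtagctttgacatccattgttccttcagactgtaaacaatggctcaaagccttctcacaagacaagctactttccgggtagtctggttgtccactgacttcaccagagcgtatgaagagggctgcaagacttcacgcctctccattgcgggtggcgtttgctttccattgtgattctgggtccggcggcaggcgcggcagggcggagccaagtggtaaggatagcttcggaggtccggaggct
Cox8a: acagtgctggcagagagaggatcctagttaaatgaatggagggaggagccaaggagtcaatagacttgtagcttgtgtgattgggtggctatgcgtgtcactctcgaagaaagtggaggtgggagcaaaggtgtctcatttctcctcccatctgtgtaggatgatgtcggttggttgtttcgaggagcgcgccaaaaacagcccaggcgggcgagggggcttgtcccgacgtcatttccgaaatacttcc
Cox8b: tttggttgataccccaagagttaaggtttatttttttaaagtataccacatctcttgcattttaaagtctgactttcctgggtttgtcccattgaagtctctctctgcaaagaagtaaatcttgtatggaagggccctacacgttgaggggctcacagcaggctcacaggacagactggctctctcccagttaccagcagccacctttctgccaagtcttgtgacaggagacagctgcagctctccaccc

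The c subunit genes held different motifs in these windows. Atp5g1 had the E-box CACGTG at 44 bases before the start, the type of site that bHLH proteins such as the Hey factors can bind. Atp5g2 had the NRF1 core GCGCATG on both strands, at 42 and 39 bases, as 1 overlapping palindrome. Atp5g3 had an E-box at 238 bases and, on the opposite strand, the nuclear receptor core AAGGTCA at 52 bases. Cox6a1 had the ETS core CCGGAAG, on the opposite strand, at 16 bases and the same palindrome of the NRF1 core at 162 and 159 bases. Cox6b1 had the ETS core on the opposite strand at 28 bases. Cox6b2, Cox7a1, Cox7a2, Cox8a and Cox8b held none of the 7 motifs searched.

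In all, 66 of the 80 genes had 71 such windows among the 32851 windows of the RefSeq table. Each motif was searched on both strands. The ETS core CCGGAAG, to which GABPA binds, occurred in 16.9% of the respiratory chain windows and 6.91% of all windows. The NRF1 core GCGCATG occurred in 14.1% against 3.24%. The E-box CACGTG was in 9.86% against 6.02%, AAGGTCA in 7.04% against 4.08% and GATGGCG, the YY1 core, in 4.23% against 2.18%. The TATA motif TATAAA was in 8.45% against 12.4%, and the MEF2 motif in 1.41%, which is Cox5b alone, against 3.20%. The GC content had a median of 56.4% in the respiratory chain windows and 52.4% in all windows, and the part of base composition in the motif shares was not tested. Line differences were close between compared genes with and without the commonest motif, with medians of -1.70 for the 12 genes with the ETS core and -1.57 for the 50 without it. The 10 genes with the NRF1 core had a median of -1.88 and the 52 without it -1.51. A match here is a string of letters and not evidence of binding.

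Of the 4 genes that matched by name only, 3 were higher in the Hey2 line in both pairs and Cox7a2l was lower. Their median was 0.37 in the uninduced and 0.63 in the induced pair, against 0.20 and 0.27 for all compared genes. The counting interval lay above equality for 1 of the 4 in the uninduced and for 2 in the induced pair. Ndufa12l was at 7.55 and 4.90 RPKM in the Hey1 line, against 11.3 and 9.21 RPKM in the Hey2 line, and Cox4nb was at 5.83 and 5.0 against 11.2 and 10.7 RPKM. Atp5s was at 3.19 and 3.23 against 3.86 and 4.87 RPKM. Cox7a2l, whose product joins complexes III and IV, was at 52.0 and 42.9 against 27.9 and 32.5 RPKM, 1.87-fold lower (1.57 to 2.23) in the uninduced pair.

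In the uninduced pair the line difference of other mitochondrial genes varied by group, and some groups lay close to the subunits. The 9 other listed respiratory chain genes, among them Ndufab1, Cycs and Etfa, had a median of -1.73, with 6 at least 2-fold lower. The 14 genes of the citric acid cycle had a median of -0.81, and 6 were at least 2-fold lower in the uninduced Hey2 line. The 16 genes of fatty acid oxidation had a median of -1.45, with 13 at least 2-fold lower. Cpt1b, the muscle form of the enzyme that commits fatty acids to mitochondrial import, was at 14.0 and 15.8 RPKM in the Hey1 line, against 2.16 and 1.77 RPKM in the Hey2 line. The 33 compared assembly factors of the respiratory complexes had a median of -0.41, with 6 at least 2-fold lower and 2 higher. The 15 genes of the outer membrane, protein import and chaperones had a median of 0.36, with 0 at least 2-fold lower and 3 higher. Hspd1, the mitochondrial chaperonin, was at 38.7 and 29.2 RPKM in the Hey1 line, against 112 and 100.2 RPKM in the Hey2 line.

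The regulators of mitochondrial genes did not share a direction, with medians of 0.02 in the uninduced and -0.25 in the induced pair. In each pair 7 of the 9 compared were at least 2-fold apart, and the rest were not. Of 9 compared, 4 were at least 2-fold lower in both pairs: Ppargc1a and Ppargc1b, coactivators of mitochondrial biogenesis, and the nuclear receptors Esrra and Esrrg. Esrra was at 19.3 and 19.9 RPKM in the Hey1 line, against 5.20 and 5.98 RPKM in the Hey2 line, and Esrrg at 7.94 and 9.70 against 1.68 and 1.30 RPKM. Ppargc1a was at 3.17 and 3.17 against 0.635 and 0.528 RPKM, and Ppargc1b at 5.84 and 6.31 against 1.05 and 1.29 RPKM. The 3 that were at least 2-fold higher in both pairs were Nrf1, Gabpa and Tfam. Nrf1 was at 2.23 and 2.20 against 5.49 and 5.55 RPKM, Gabpa at 4.17 and 4.06 against 10.01 and 11.8 RPKM, and Tfam, which packages and transcribes mitochondrial DNA, at 4.10 and 4.19 against 11.9 and 9.55 RPKM. Nrf1 and Gabpa transcripts were thus higher, and those of the nuclear receptors Esrra and Esrrg lower, in the line where most subunit transcripts were lower. Whether any of these factors acts on the subunit genes was not tested.

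Induction of Hey1 moved the subunit genes little. Taking a ratio of RPKM of at least 5 to 4 as the size rule, 15 of the 78 genes were lower and 3 higher after doxycycline, where 19.9% and 6.44% of all compared genes were, so the count was near the background. No gene was 2-fold apart, where 0.136% of all compared genes were. The median difference was -0.13 against -0.06 for all compared genes. With median ratio scaling, 8 genes were lower and 4 higher, and with upper quartile scaling 11 and 3. By counting interval, 29 genes were below equality and 5 above, against 13.4% and 4.88% of all compared genes; of the 1596 genes averaging 20 RPKM or more, 457 were below and 182 above. In the same pair, 6 of 8 proliferation markers were lower by the 5 to 4 rule, with sums of 38.5 and 27.2 RPKM, while cardiomyocyte markers summed to 28643 and 29282 RPKM. Of the other marker lists, 4 of 7 fibroblast, 5 of 11 pluripotent cell and 2 of 2 yolk sac endoderm markers were lower by the rule and 0 were higher. The part of these differences was not tested. By complex, the 5 to 4 rule found 5 of 34 genes lower and 2 higher in complex I, 0 in complex II, 1 lower of 8 in complex III, 3 lower and 1 higher of 14 in complex IV and 5 lower of 15 in complex V.

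The 5 largest differences with Hey1 were decreases in complexes I, IV and V. Atp5j, coupling factor 6 of the ATP synthase stalk, went from 128 to 75.6 RPKM, 1.69-fold lower (1.50 to 1.91). Cox7c, a small complex IV subunit, went from 135 to 82.3 RPKM, 1.64-fold lower (1.41 to 1.92). Ndufb6 went from 99.7 to 63.9 RPKM, 1.56-fold lower (1.33 to 1.83), and Ndufv2, an iron-sulphur protein of the complex I core, from 56.6 to 36.8 RPKM, 1.54-fold lower (1.36 to 1.74). Atp5e, the epsilon subunit, went from 183 to 124 RPKM, 1.48-fold lower (1.30 to 1.69). Each of these genes stayed higher in the induced Hey1 line than in both libraries of the Hey2 line. Their partners in the same structures did not move alike: Ndufv1 was at 113 and 116 RPKM, and Atp5b at 847 and 862 RPKM. Among the 3 genes past 5 to 4 upwards, Ndufs8, another iron-sulphur core protein, went from 34.5 to 45.7 RPKM, 1.32-fold higher (1.15 to 1.52), and Ndufa1 from 156 to 201 RPKM, 1.29-fold higher (1.15 to 1.44). Cox6b2 was 1.402-fold higher with an interval that held equality (0.751 to 2.67). The muscle isoforms did not pass the rule, with Cox6a2 at 362 and 351 RPKM and a 1.03-fold difference (0.965 to 1.10).

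Induction of Hey2 gave fewer differences past 5 to 4, and so it did over all compared genes, at 2117 against 2891 with Hey1. By the same rule 5 of the 78 genes were lower and 5 higher, against 9.63% and 9.64% of all compared genes, and the median was -0.03. None was 2-fold apart, where 0.0455% of all compared genes were. By counting interval, 3 genes were below equality and 2 above, against 6.62% and 8.03% of all. The compared members had median reads of 161.5 and 284 in the Hey2 line, against 641 and 561.5 in the Hey1 line. Interval counts of the inductions therefore cannot be compared directly. Of the 5 largest differences, those of Cox6b2 and Ndufa13 had intervals that left out equality. Cox6b2 went from 9.93 to 14.1 RPKM, 1.42-fold higher (1.02 to 1.99), and Ndufa13 from 18.4 to 24.7 RPKM, 1.34-fold higher (1.09 to 1.66). The intervals of the other 3 held equality: Ndufs5 at 8.88 and 6.25 RPKM (1.42-fold lower, 0.817 to 2.45), Atp5l at 11.9 and 15.8 RPKM (1.33-fold higher, 0.887 to 2.03) and Uqcrb at 25.9 and 19.9 RPKM (1.30-fold lower, 0.954 to 1.77). Cox6a2 was at 5.54 and 4.97 RPKM from 21 and 34 reads. The interval of its fold decrease, 0.615 to 1.98, held equality, and values in it below 1 are increases.

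**Figure D4:**
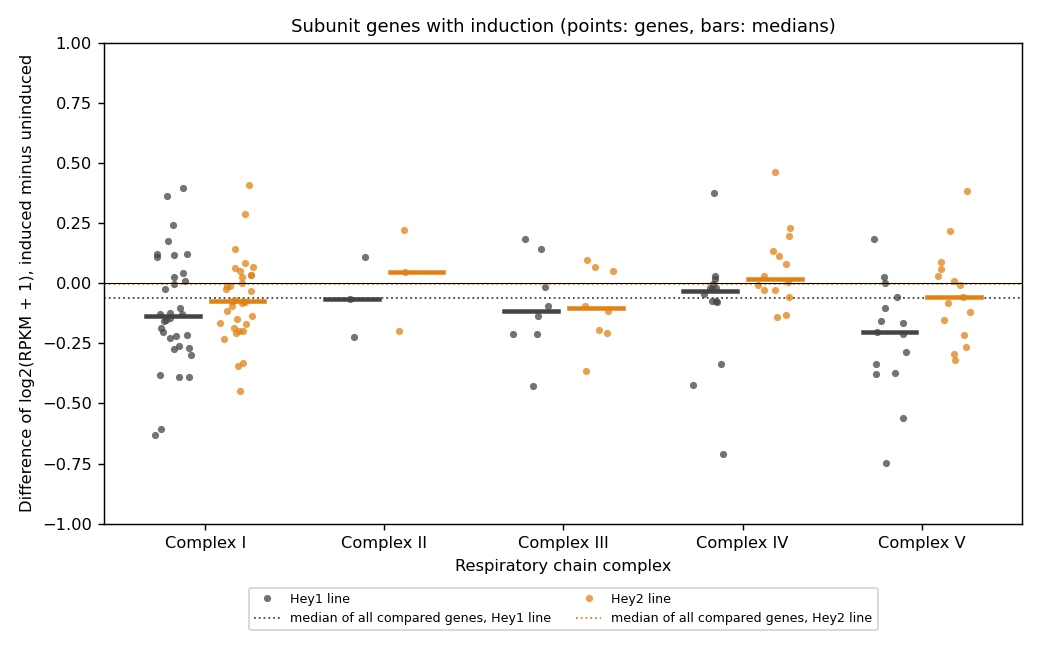
Difference of log2(RPKM + 1) with doxycycline (induced minus uninduced) for the compared subunit genes of each complex in the Hey1 line (grey) and the Hey2 line (orange); points are genes, bars medians and dotted lines the medians of all compared genes. All points lie within 1 log2 unit of 0, and the medians of complex V are -0.20 (Hey1 line) and -0.06 (Hey2 line).

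The inductions use different libraries and had little in common gene by gene. Over the 78 genes the Spearman correlation across genes was 0.06, with 0.04 over all compared genes. Cox6b2 was the only one past 5 to 4 upwards in both inductions, and none was past it downwards in both, where 0.983% and 2.43% of all compared genes were. Atp5g3 was the only gene with a counting interval below equality in both, from 475 to 376 RPKM with Hey1 (1.26-fold lower, 1.19 to 1.34) and from 170.1 to 139 RPKM with Hey2 (1.23-fold lower, 1.11 to 1.36). Of all compared genes, 1.43% had such intervals in both. Atp5g2 went from 48.5 to 37.1 RPKM with Hey1 and from 42.2 to 49.2 RPKM with Hey2, the latter within counting error at 1.16-fold (0.960 to 1.42). No gene had intervals on opposite sides of equality, where 1.36% of all compared genes were below with Hey1 and above with Hey2 and 0.218% the reverse.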

How the data were processed

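The labels describe 12 samples: 4 RNA libraries, used here, and 8 chromatin immunoprecipitation samples, not analysed here. The authors deposited 1 table of RPKM per gene and library, with a fold column per line that is a score of unstated construction and was not used. Per the submitters' processing notes, mm9, Bowtie 1.0, DESeq and MACS 1.4.1 were used; the sources used here give neither the gene annotation nor the treatment of multiply mapped reads. Blank cells were read as not listed. The members and lists were chosen with earlier results of these data known.

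RPKM values are whole multiples of what 1 read is worth, so read numbers and transcript lengths were recovered for 99.9% of the 15371 listed genes. Depth (5750000 to 10375000 reads) was the smallest that gave whole reads at the genomic span for close to the most genes. Genes spanning under 8000 bases were tried, and 245 to 385 of 2336 to 2999 per library gave whole reads. The fewest reads among 348 genes whose recovered length equals their genomic span were 10 for the Hey1 line and 5 for the Hey2 line. These were taken as the minimum of a listed gene. The recovered lengths of 634 genes were multiplied up until each value met this minimum, and Cox7a1, at 183 bases, has the shortest length its values allow and so the fewest reads. After 6 exact copies of rows were dropped, 10991 genes listed in all libraries with a mean of at least 1 RPKM were compared.

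The size rules were 2-fold on log2(RPKM + 1) between lines and an RPKM ratio of 5 to 4 with induction. Fold changes in the text are ratios of RPKM, with 95% exact conditional binomial intervals. No test was made. No count model was fitted, since it would have to take the uninduced and induced libraries of a line as replicates, or doxycycline as acting alike in both lines. Genes were named by rule: the isoform, c subunit and complex II genes, the extremes and most abundant member of each complex, the 5 largest induction differences and every gene not listed in a library. Others were named after their values were seen. Scaling, low-value filters, the pseudocount, blank cells, transcript length and the share measure were varied. Start windows came from RefSeq GRCm38.p6, matched by Entrez identifier. Coordinates on mm9 are not given. Python 3.11.15, NumPy 2.4.6, pandas 2.3.3, SciPy 1.17.1 and Matplotlib 3.10.9 were used.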

Additional observations from a re-analysis of the deposited data

How the results depend on the processing

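No line difference of a member or complex changed sign under the alternatives tried. Induction differences near 0 did, for 13 members with Hey1 and 16 with Hey2. Medians that changed sign with Hey1 were those of complex IV (-0.03 to 0.06 and 0.03 with median ratio and upper quartile scaling) and of complex II (-0.06 to 0.03 and 0.00). With Hey2 and the length trend removed, the median of all members went from -0.03 to 0.04 and that of complex I from -0.07 to 0.00. Between the lines, 57 to 71 genes in the uninduced and 48 to 68 in the induced pair were at least 2-fold apart; 12 to 18 passed 5 to 4 with Hey1. With Hey2 the count of 10 fell to 6 (4 lower, 2 higher) where at least 50 reads were required in each library, a filter chosen after seeing the data, which leaves 68 genes. With the length trend removed, 1 was lower and 7 higher. Median ratio scaling moved the median of all compared genes from 0.20 and 0.27 to 0.01 and 0.00, and the respiratory chain genes then differed from it by -1.80 in both pairs.

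In the induced pair, median ratio and upper quartile scaling gave medians of -1.80 and -1.71 for all members (-1.48 as deposited), -2.08 and -1.98 for complex I, -1.19 and -1.09 for complex II, -1.75 and -1.65 for complex III, -2.10 and -2.00 for complex IV and -1.76 and -1.66 for complex V. Removing the length trend gave -1.49 for complexes I and IV and -1.21 for complex V. As shares of reads instead of RPKM, in the Hey1 line Cox6a2 held 63.9% and 63.5% and Cox8b 15.7% and 14.2%, and Cox7a1 held 5.84%, 7.60%, 2.82% and 2.46% in the 4 libraries, where its recovered length is only the shortest its values allow. No paired analysis was possible because the groups share only 1 replicate number; the uninduced and induced pairs of lines are given side by side with no test. With 1 library per group, none was left out. Depth limits genes with few reads: 10 compared members had fewer than 50 reads in a library.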
